A study of Rattus norvegicus with 6 samples.

Results

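Lesion phagocytes clear myelin and dead cells from an injured spinal cord, and 41 genes of their lysosomes, lipid handling and receptors were followed in RNA from the lesion centre. They were chosen by name: genes of lesion macrophages and disease-associated microglia, cathepsins, and scavenger and Fc receptors. A row of that name was found for 38 of the 41 in a table of 33455 genes, and 37 passed the filter on low counts. Ctsl, Cd36 and Fcgr2b had no row of that name, and Ms4a7 was below the filter. The libraries came from wild type Rattus norvegicus whose cord had been contused at T9. One group received a gel with ultrasound (Gel+US, n = 3) and the other a piezoelectric gel with ultrasound (Piezo Gel+US, n = 3), so injury, gel and ultrasound were common to both. A piezoelectric material gives electrical charge under mechanical strain. Ultrasound was given over the implant at 100 Hz for 10 min a day during 4 weeks, and the RNA came from about 5 mm3 of tissue around the epicentre. The labels call the libraries of a group biological replicates, and strain, sex and age are not given in the sources used here.

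Macrophages that enter the lesion and resident microglia recognise debris through surface receptors, engulf it, and digest it in lysosomes with cathepsins and lipases. Myelin is rich in cholesterol, which leaves the lysosome through NPC1 and NPC2 and is then stored in droplets or passed to apolipoprotein E. Phagocytes loaded with myelin lipid switch on Gpnmb, Spp1, Lgals3, Lpl and related genes, a state described in lesions and in disease-associated microglia.

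Values by library are given in the order of replicates 1, 2 and 3, in CPM, the counts of a gene scaled to a common library size. Library totals lay between 17212653 and 21436820 counts, and the genes studied here took 0.859% to 1.12% of them. Piezo Gel+US replicate 2 stood apart through genes of Schwann cells, the myelinating cells of peripheral nerve. Prx, which makes the Schwann cell protein periaxin, measured 489, 865 and 686 CPM under Gel+US and 813, 5396 and 1401 CPM under Piezo Gel+US. Drp2, a partner of periaxin, measured 209.7, 349 and 321 CPM under Gel+US and 335, 1422 and 835 CPM under Piezo Gel+US. These genes with Cldn19, Ncmap, Egr2 and Mbp (6 of 9 measured) summed to 27017, 18155 and 20677 CPM under Gel+US and 32820.2, 30255 and 38132 CPM under Piezo Gel+US, of which Mbp, shared with central myelin, made most. All 6 were higher in Piezo Gel+US (47.1% of all genes), and 0 were called by edgeR. By that test 4 had an unadjusted p below 0.05 (1.38% of all genes), and the median log2 fold change was 1.73. All but Mbp were highest in Piezo Gel+US replicate 2. The 10 measured genes of 14 that macrophages and microglia share summed to 684, 997 and 374 CPM under Gel+US and 824, 373 and 572 CPM under Piezo Gel+US. Fibroblast genes (10 of 10 measured) summed to 1002, 6978 and 777 CPM under Gel+US and 1214, 6195 and 1497 CPM under Piezo Gel+US, so replicate 2 of both groups was rich in fibroblast RNA. Neuron genes (10 of 10 measured) summed to 2242 to 16561 CPM under Gel+US and 1694 to 8256 under Piezo Gel+US. Of them 0 were higher and 10 lower in Piezo Gel+US (52.9% of all genes were lower), none called. Oligodendrocyte genes (9 of 9) summed to 10772 to 20432 CPM under Gel+US and 8962 to 21009 under Piezo Gel+US. Astrocyte genes (7 of 8, Gfap having no row of that name) summed to 2128 to 3269 CPM under Gel+US and 944 to 2984 under Piezo Gel+US. The neuron, oligodendrocyte and astrocyte sums were each lowest in replicate 2 within both groups. The defining RNAs of cord tissue were thus present in every library, at their lowest sums in replicate 2 of each group. T cell genes (7 of 8 measured) summed to 34.7 to 162 CPM under Gel+US and 30.01 to 91.1 under Piezo Gel+US, and neutrophil genes (8 of 10) to 9.11 to 300.1 CPM under Gel+US and 99.2 to 242 under Piezo Gel+US. What part these differences in tissue had in the member values was not tested. No measured gene of the Schwann cell, macrophage, fibroblast, neuron, oligodendrocyte, astrocyte or T cell lists was at 0 in any library. In bulk tissue, fewer cells of a type and less RNA per cell cannot be told apart.

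Per base of gene model, Apoe and several lysosome genes were among the most abundant of the set. Levels between genes are compared as CPM divided by the gene length in kilobases (CPM per kilobase), averaged over the 6 libraries. Apoe, the lipid carrier of the nervous system, came first at 2268 CPM per kilobase. Psap, the precursor of the saposins that present lipids to lysosomal enzymes, followed at 757. Cd9, a tetraspanin of the cell surface, had 464, and Lamp1, the main glycoprotein of the lysosome membrane, 391. Of the cathepsins, Ctsd (328), Ctsb (276) and Ctss (232) were the highest. Some receptors and macrophage markers lay far below: Trem2 had 22.4 CPM per kilobase, Cd68 9.27, Mrc1 3.94 and Cd163 1.91. Lower still were Cst7 at 1.57, Arg1 at 1.53, Msr1 at 0.765 and Ms4a7 at 0.277. Others were higher, with Spp1 at 188, Tyrobp at 80.3, Gpnmb at 74.8 and Lgals3 at 61.7. Not all lipid handling genes were high: Npc1 had 35.6, Plin2 16.7, Lipa 8.98 and Lpl 8.97. Apoe in its lowest library (Gel+US replicate 3) was still above Psap in its highest (the same library), at 1708 and 814 CPM per kilobase, whereas the ranges of Cd9 and Lamp1 overlapped, as did those of Ctsd and Ctsb.

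**Figure D1:**
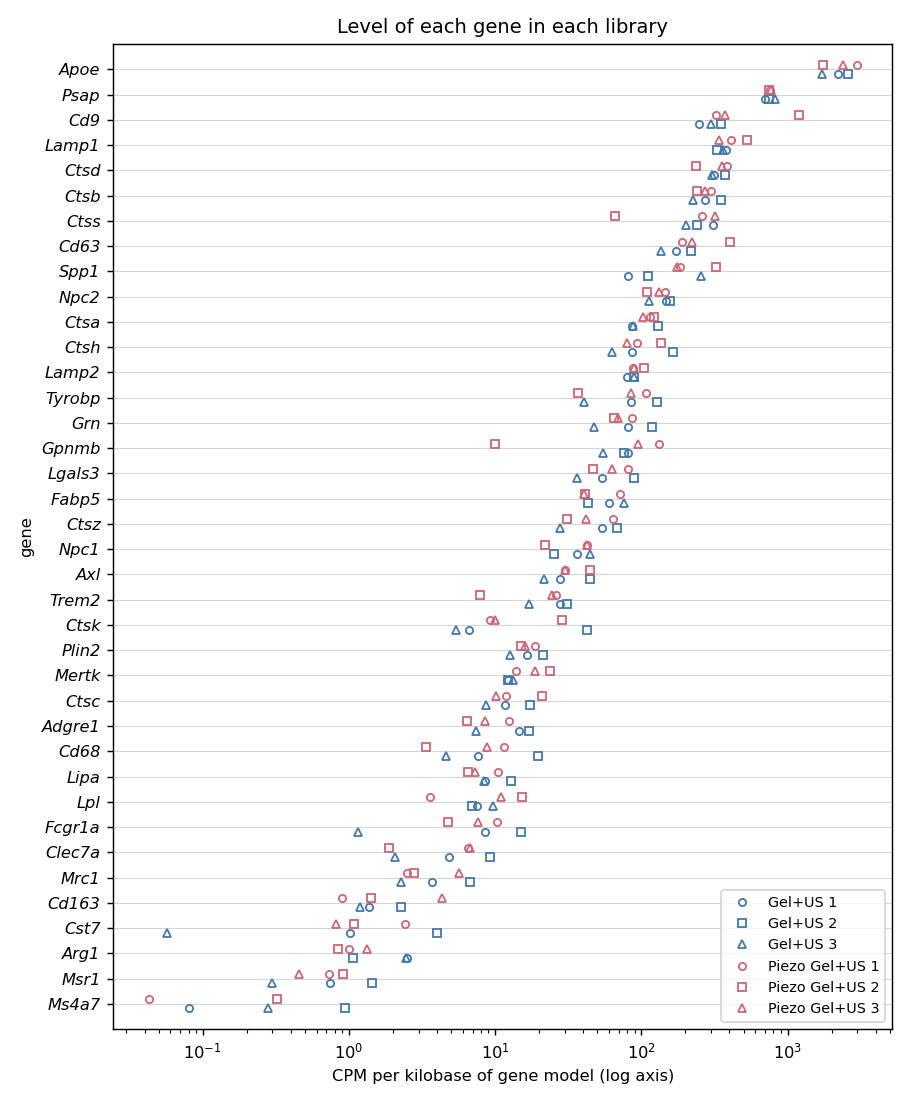
Level of each of the 38 genes in each library, in CPM per kilobase of gene model on a log axis, ordered by the mean; blue marks are Gel+US, red marks Piezo Gel+US, and the shape gives the replicate. Apoe and Psap lead, and of the 37 tested genes the library spread is widest for Cst7, Gpnmb and Fcgr1a; Ms4a7 had 0 counts in Piezo Gel+US replicate 3 and no mark there.

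Promoter sequences of 5 members are shown because they carry short motifs known from lysosome and macrophage gene control. They were taken from RefSeq (GRCr8), matched by symbol for 31 of the 41 genes in 34 windows, as the 250 bases before the annotated start, and are printed 5′ to 3′ on the strand of the gene. Capitals mark any match, on either strand, to TCACGTG (the core bound by the lysosome regulator TFEB and its relatives), CACGTG (the E-box within it), TCATGTG (the MITF M-box core), GAGGAAG (a core of the macrophage factor PU.1) or TGACTCA (the AP-1 site). The first 2 motifs overlap by construction.
Lamp1, chr16:83075064-83075313, minus strand: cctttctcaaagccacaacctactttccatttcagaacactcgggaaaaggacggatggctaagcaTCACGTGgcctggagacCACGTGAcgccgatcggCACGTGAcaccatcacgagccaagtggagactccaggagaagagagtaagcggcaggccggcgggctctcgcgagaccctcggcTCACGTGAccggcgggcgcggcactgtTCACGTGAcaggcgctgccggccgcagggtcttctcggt
Ctsd, chr1:206968822-206969071, minus strand: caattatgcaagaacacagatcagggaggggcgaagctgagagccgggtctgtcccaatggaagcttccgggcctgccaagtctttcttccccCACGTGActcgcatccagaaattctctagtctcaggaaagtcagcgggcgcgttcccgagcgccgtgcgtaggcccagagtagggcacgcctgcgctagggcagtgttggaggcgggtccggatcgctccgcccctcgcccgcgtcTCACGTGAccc
Gpnmb, chr4:79340878-79341127, plus strand: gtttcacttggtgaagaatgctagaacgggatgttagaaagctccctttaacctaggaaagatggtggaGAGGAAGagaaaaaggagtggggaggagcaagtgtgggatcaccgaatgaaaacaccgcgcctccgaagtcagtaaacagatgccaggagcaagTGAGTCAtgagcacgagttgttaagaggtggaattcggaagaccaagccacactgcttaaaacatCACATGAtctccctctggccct
Ctss, chr2:185775146-185775395, plus strand: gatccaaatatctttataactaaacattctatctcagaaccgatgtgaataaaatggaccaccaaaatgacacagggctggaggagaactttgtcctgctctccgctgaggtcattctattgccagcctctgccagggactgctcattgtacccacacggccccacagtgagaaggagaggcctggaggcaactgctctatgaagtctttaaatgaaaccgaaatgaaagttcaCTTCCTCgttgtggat
Trem2, chr9:20151780-20152029, minus strand: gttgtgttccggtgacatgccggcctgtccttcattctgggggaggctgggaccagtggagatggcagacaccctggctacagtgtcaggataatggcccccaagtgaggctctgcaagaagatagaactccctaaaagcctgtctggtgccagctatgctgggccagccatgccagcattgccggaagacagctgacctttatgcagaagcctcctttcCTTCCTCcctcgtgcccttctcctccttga
Lamp1 holds 5 copies of CACGTG, starting 183, 167, 150, 65 and 38 bases before the start site, and Ctsd holds 2, at 157 and 10 bases before it. Each of these copies extends to TCACGTG on at least 1 strand. TCACGTG occurred in 3 of the 34 windows (8.82%; Plin2, Ctsd and Lamp1) and in 2.79% of 33469 windows of all genes. Gpnmb holds TCATGTG on the opposite strand 22 bases before its start, a motif found in 5 of 34 windows (14.7%) and in 3.07% of all windows. GAGGAAG occurred in 13 of 34 windows (38.2%) and in 10.2% of all, at 30 bases before the start in Trem2 and 16 in Ctss, on the opposite strand in both. TGACTCA occurred in 3 of 34 (8.82%; Cd68, Gpnmb and Cd63) and in 4.05% of all. The median GC content was 57.2% in the member windows and 51.2% in all windows, which the shares do not take into account. These are matches of letters, and the shares were not tested.

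No member passed the comparison of Piezo Gel+US with Gel+US. By the edgeR quasi-likelihood test 0 of 37 were called at an adjusted p below 0.05, where 0% of the 17066 genes tested were, and the lowest adjusted p of a member was 0.994. At an unadjusted p below 0.05 there was 1 member, Mertk, on the higher side (1.38% of all genes) and 0 on the lower side (0.721% of all genes), and DESeq2, which also called 0, had 2 in either direction (2.81% of all genes in its fit). Log2 fold changes, positive when higher in Piezo Gel+US, were above 0 for 16 members (47.1% of all genes) and below 0 for 21 (52.9% of all genes). Their median was -0.024, against -0.021 over all genes tested. Groups did not overlap for 1 member on the higher side (4.08% of all genes) and 0 on the lower side (2.73% of all genes). Compared by equal replicate number, 6 members (Axl, Mertk, Cd9, Ctsc, Lamp2 and Cd63) were higher in Piezo Gel+US in all 3 pairs (14.3% of all genes) and 1, Arg1, was lower in all 3 (14.7% of all genes).

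**Figure D2:**
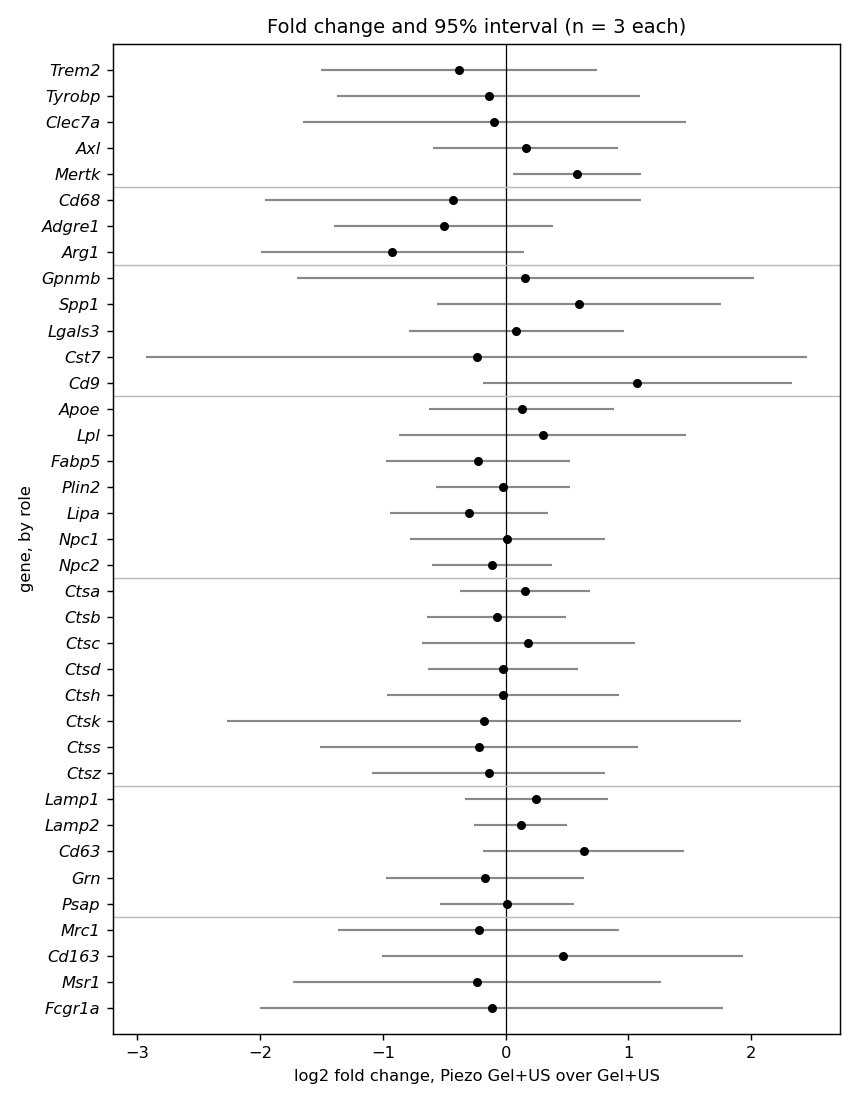
Log2 fold change of the 37 tested genes (points) with 95% intervals (lines) from the edgeR fit, n = 3 libraries a group, in blocks by role. The interval of Mertk, 0.061 to 1.10, is the only one that leaves out 0.

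Receptors that recognise lipids and dying cells had 2 of 5 members above 0 and 3 below. Mertk, which had the lowest p of all members, is a receptor tyrosine kinase that takes up apoptotic cells and myelin through the bridging proteins GAS6 and protein S. Mertk measured 55.4, 55.4 and 60.04 CPM under Gel+US and 62.97, 108 and 85.2 CPM under Piezo Gel+US. All 3 Piezo Gel+US libraries lay above the highest Gel+US library, by a small margin in replicate 1. Its log2 fold change was 0.58 (95% interval 0.061 to 1.1), with an unadjusted p of 0.0334 and an adjusted p of 0.994 by the edgeR test, and was 0.37 without Piezo Gel+US replicate 2. That library had the highest Mertk and the highest Prx and Drp2, and the part of Schwann cell RNA was not tested. Axl, its relative, measured 134 ± 50.6 CPM under Gel+US and 150.4 ± 36.7 under Piezo Gel+US (SD, n = 3), with a log2 fold change of 0.16 that was -0.064 without Piezo Gel+US replicate 2. Trem2, the lipid-sensing receptor of microglia and macrophages, measured 28.5, 31.8 and 17.6 CPM under Gel+US and 26.7, 8.04 and 25.2 CPM under Piezo Gel+US. Tyrobp, the adaptor that carries the TREM2 signal, measured 48.9, 73.9 and 23.4 CPM under Gel+US and 62.01, 21.2 and 49.5 CPM under Piezo Gel+US. Gel+US replicate 2 was highest and Piezo Gel+US replicate 2 lowest for both genes, and the groups overlapped. The log2 fold changes were -0.38 (95% interval -1.51 to 0.74) for Trem2 and -0.14 (95% interval -1.37 to 1.1) for Tyrobp. Clec7a, the dectin-1 receptor for beta-glucans, ran from 4.72 to 23.2 CPM between the same libraries, with a log2 fold change of -0.094.

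Marker proteins of the phagocyte surface and lysosome, with arginase, had 0 of 3 tested members above 0 and 3 below. Adgre1, the adhesion receptor used as a pan-macrophage marker in rodents, measured 48.3, 56.5 and 24.6 CPM under Gel+US and 41.2, 21.5 and 28.5 CPM under Piezo Gel+US. Its log2 fold change was -0.50 (95% interval -1.39 to 0.39). Cd68, a glycoprotein of phagocyte lysosomes, had its lowest level, 6.23 CPM, and its highest, 36.3 CPM, in replicate 2 of Piezo Gel+US and of Gel+US, a ratio of 5.83, and group means of 19.7 and 14.6 CPM for Gel+US and Piezo Gel+US. Its log2 fold change was -0.43 and 0.37 without Gel+US replicate 2. Arg1, the arginase of wound-type macrophages, was scarce at 3.85, 1.66 and 3.81 CPM under Gel+US and 1.55, 1.31 and 2.07 CPM under Piezo Gel+US. Gel+US replicates 1 and 3 stood above the other 4 libraries, while Gel+US replicate 2 fell within the Piezo Gel+US range. Arg1 had the most negative log2 fold change of the set, -0.92 (95% interval -1.99 to 0.15), and it stayed between -1.23 and -0.74 when libraries were left out, with adjusted p of 0.744 or more in each of those edgeR fits. It rested on 26 to 77 counts per library. Ms4a7, a membrane protein of border and lesion macrophages, had 0 to 21 counts per library and was not tested.

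Secreted and surface proteins that lipid-laden phagocytes induce had 4 of 5 members above 0 and 1 below. The 5 summed to 677, 881 and 924 CPM under Gel+US and 1077, 2033 and 1011 CPM under Piezo Gel+US. Cd9 alone gave 1467 of the 2033 CPM in Piezo Gel+US replicate 2, so this sum is not a level shared by the group. Piezo Gel+US replicate 2, where this sum was highest, had the lowest macrophage and microglia sum, 373 CPM, close to the 374 of Gel+US replicate 3. Which cells made the RNA of these genes was not tested. Gpnmb, a glycoprotein of late endosomes and lysosomes, measured 184, 173 and 124 CPM under Gel+US and 302, 22.7 and 214 CPM under Piezo Gel+US, chosen for full values after its spread was seen. It was 13.3 times higher in Piezo Gel+US replicate 1 than in replicate 2 of the same group. Its log2 fold change was 0.16 (95% interval -1.7 to 2.02) with all libraries and 0.68 without Piezo Gel+US replicate 2. Spp1, the secreted matrix protein osteopontin, measured 121, 167 and 387 CPM under Gel+US and 274, 486 and 263 CPM under Piezo Gel+US. Spp1 was highest in the library where Gpnmb was lowest, and Gel+US replicate 3 exceeded the other 2 Piezo Gel+US libraries. Its log2 fold change was 0.60 (95% interval -0.56 to 1.76), and ran from 0.24 without Piezo Gel+US replicate 2 to 1.23 without Gel+US replicate 3. Cd9 measured 306, 429.7 and 369 CPM under Gel+US and 399.8, 1467 and 458 CPM under Piezo Gel+US. It was lowest in Gel+US replicate 1, and the 2 Piezo Gel+US libraries other than replicate 2 lay within or just above the Gel+US range. The log2 fold change of Cd9, the largest of the set at 1.07 (95% interval -0.19 to 2.33), was 0.21 without Piezo Gel+US replicate 2. Lgals3, the sugar-binding galectin-3 that marks damaged lysosomes, measured 72.2 ± 32.8 CPM under Gel+US and 76.8 ± 21.2 under Piezo Gel+US (SD, n = 3), with a log2 fold change of 0.088. Cst7, a cystatin that inhibits lysosomal cysteine cathepsins, had 1 to 64 counts per library, lowest for Gel+US replicate 3, and a log2 fold change of -0.23.

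Lipid and cholesterol handling genes had 3 of 7 members above 0 and 4 below. Apoe measured 2632, 3066 and 2033 CPM under Gel+US and 3551, 2074 and 2834 CPM under Piezo Gel+US. Its highest and second lowest library were both in Piezo Gel+US (replicates 1 and 2), and the log2 fold change was 0.13 (95% interval -0.63 to 0.89), turning to -0.087 without Piezo Gel+US replicate 1. Fabp5, a carrier of fatty acids in the cytosol, measured 43.8, 31.1 and 55.4 CPM under Gel+US and 51.9, 29.9 and 29.6 CPM under Piezo Gel+US. Lipa, the acid lipase that frees cholesterol from its esters in the lysosome, measured 26.5, 39.7 and 25.99 CPM under Gel+US and 32.4, 20.1 and 22.5 CPM under Piezo Gel+US. Fabp5 and Lipa overlapped between groups, with log2 fold changes of -0.23 (95% interval -0.98 to 0.52) and -0.30 (95% interval -0.94 to 0.35). The cholesterol exporters Npc1 and Npc2 differed little between group means: Npc1 measured 154 ± 42.1 CPM under Gel+US and 156 ± 52.7 under Piezo Gel+US (SD, n = 3) and Npc2 179 ± 30.4 CPM under Gel+US and 165 ± 22.6 under Piezo Gel+US (SD, n = 3). Both were lowest in Piezo Gel+US replicate 2. Plin2, the coat protein of lipid droplets, measured 39.99 ± 10.3 CPM under Gel+US and 39.5 ± 4.49 under Piezo Gel+US (SD, n = 3), a log2 fold change of -0.018 (95% interval -0.56 to 0.53). Lpl, which splits lipoprotein triglycerides, ran from 7.09 CPM in Piezo Gel+US replicate 1 to 29.9 in Piezo Gel+US replicate 2, so that the extremes of all 6 libraries stood in 1 group, and its log2 fold change was 0.30 (95% interval -0.86 to 1.47).

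Cathepsins, the proteases of the lysosome, had 2 of 8 measured members above 0 and 6 below, all with intervals that included 0. Ctsd, the aspartic protease, measured 628, 743 and 612 CPM under Gel+US and 767, 469 and 715 CPM under Piezo Gel+US. Ctsa, a serine carboxypeptidase that also protects other lysosomal enzymes, measured 165, 248 and 167 CPM under Gel+US and 219, 234 and 195 CPM under Piezo Gel+US. Ctsc, which activates the proteases of immune cell granules, measured 29.7, 43.8 and 21.9 CPM under Gel+US and 30.1, 52.7 and 25.7 CPM under Piezo Gel+US. Ctsd was lowest in Piezo Gel+US replicate 2, where Ctsc was highest, and the groups of all 3 genes overlapped. Their log2 fold changes were -0.024 (95% interval -0.63 to 0.59), 0.16 (95% interval -0.37 to 0.68) and 0.19 (95% interval -0.68 to 1.06) in that order. Ctsb, a cysteine protease of most lysosomes, had -0.074, Ctsh, an aminopeptidase, -0.023, and Ctsz, a carboxypeptidase, -0.14. Ctss, which trims the invariant chain of antigen-presenting cells, and Ctsk, a collagen-degrading cathepsin known from osteoclasts and fibroblasts, are neighbours on the minus strand of 1 sequence in the deposited table, at 61716856 to 61743522 and 61759854 to 61769187 in its coordinates, whose build is not named. Ctss measured 472, 368 and 312 CPM under Gel+US and 400.1, 101 and 492 CPM under Piezo Gel+US. Ctsk measured 11.5, 73.4 and 9.31 CPM under Gel+US and 16.1, 49.96 and 17.4 CPM under Piezo Gel+US. Ctss was low in Piezo Gel+US replicate 2 alone, and Ctsk was high in replicate 2 of both groups, the libraries with the highest fibroblast sums; the part of fibroblasts was not tested. Log2 fold changes were -0.21 (95% interval -1.51 to 1.08) for Ctss and -0.17 (95% interval -2.27 to 1.92) for Ctsk. Without Gel+US replicate 2 that of Ctsk was 1.4, and without Piezo Gel+US replicate 2 it was -0.92.

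Lysosome membrane proteins and cofactors had 4 of 5 members above 0 and 1 below. Psap measured 1806, 1932 and 2101 CPM under Gel+US and 1971, 1919.8 and 1994 CPM under Piezo Gel+US. Its highest library was only 1.16 times its lowest, the narrowest spread among the members with a count in every library, and its log2 fold change was 0.011 (95% interval -0.53 to 0.55). Lamp1 measured 859, 739 and 825 CPM under Gel+US and 929, 1192 and 763 CPM under Piezo Gel+US. Cd63, a tetraspanin of late endosomes and exosomes, measured 191, 242 and 152 CPM under Gel+US and 210.2, 452 and 248 CPM under Piezo Gel+US. Piezo Gel+US replicate 2 was highest for Lamp1 and Cd63, and leaving it out moved the log2 fold changes from 0.25 and 0.64 to 0.060 and 0.22. Lamp2, which also serves chaperone-mediated autophagy, measured 129 ± 8.08 CPM under Gel+US and 140.4 ± 12.9 under Piezo Gel+US (SD, n = 3), a log2 fold change of 0.12 (95% interval -0.26 to 0.50). Grn, the precursor of lysosomal granulins, had its lowest and highest level, 106 and 265 CPM, within Gel+US (replicates 3 and 2), and a log2 fold change of -0.17.

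Scavenger and Fc receptors were low in level and wide in spread, with 1 of 4 measured members above 0. Mrc1, the mannose receptor of perivascular and repair-type macrophages, measured 19.02, 34.3 and 11.7 CPM under Gel+US and 12.7, 14.3 and 28.7 CPM under Piezo Gel+US. Cd163, which takes up haemoglobin bound to haptoglobin, measured 4.81, 7.88 and 4.16 CPM under Gel+US and 3.15, 4.93 and 15.1 CPM under Piezo Gel+US. Fcgr1a, the high-affinity receptor for IgG, measured 10.96, 19.3 and 1.502 CPM under Gel+US and 13.2, 6.18 and 9.92 CPM under Piezo Gel+US. Piezo Gel+US replicate 3 held the highest Cd163 level, Gel+US replicate 2 the highest Mrc1 and Fcgr1a, and the groups overlapped for all 3. Log2 fold changes were -0.22 (95% interval -1.36 to 0.92), 0.46 (95% interval -1.01 to 1.93) and -0.11 (95% interval -2.0 to 1.77). That of Cd163 was -0.47 without Piezo Gel+US replicate 3. Msr1, a scavenger receptor for modified lipoproteins, had 12 to 53 counts per library and a log2 fold change of -0.23.

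**Figure D3:**
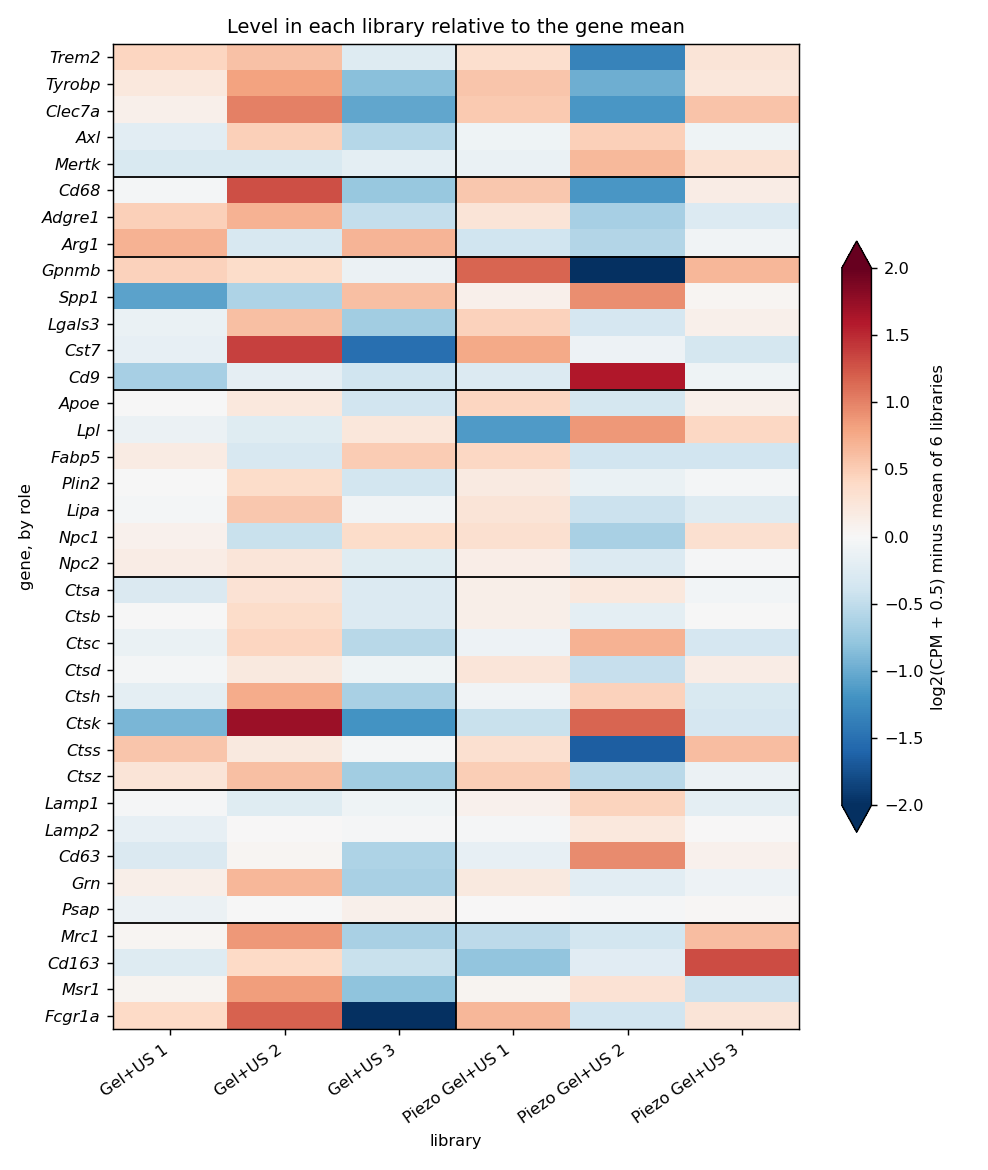
Level of the 37 tested genes in each library as log2(CPM + 0.5) minus the gene's mean of the 6 libraries, in blocks by role, with colours saturating at -2 and 2. Gel+US replicate 2 is red for most phagocyte genes, Gel+US replicate 3 is blue for many, and Piezo Gel+US replicate 2 is blue for Gpnmb and Ctss and red for Cd9, Spp1 and Cd63.

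Many members reached their extremes in the same few libraries. Of the 37 tested members 19 were highest in Gel+US replicate 2, a share of 51.4% against 19.0% of all genes tested, and 15 were lowest in Gel+US replicate 3, 40.5% against 26.6% of all genes. Gel+US replicate 2 also had the highest macrophage and microglia sum and Gel+US replicate 3 one of the lowest, within 1 group. Piezo Gel+US replicate 2 was both high and low, with shares near those of all genes, so this was not particular to the members. In that library 9 members were highest (24.3%, against 29.2% of all genes), namely Axl, Mertk, Spp1, Cd9, Lpl, Ctsc, Lamp1, Lamp2 and Cd63. Another 12 were lowest there (32.4%, against 28.4%), among them Trem2, Tyrobp, Cd68, Gpnmb, Ctss and Ctsd. The macrophage and microglia sum was lowest in that library and Prx was highest, and what part either had in these values was not tested. By role, the cathepsins summed to 2029.8, 2484 and 1688 CPM under Gel+US and 2227, 1604 and 2141 CPM under Piezo Gel+US, and the lysosome membrane genes and cofactors to 3157, 3313 and 3318 CPM under Gel+US and 3433, 3863 and 3296 CPM under Piezo Gel+US.

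**Figure D4:**
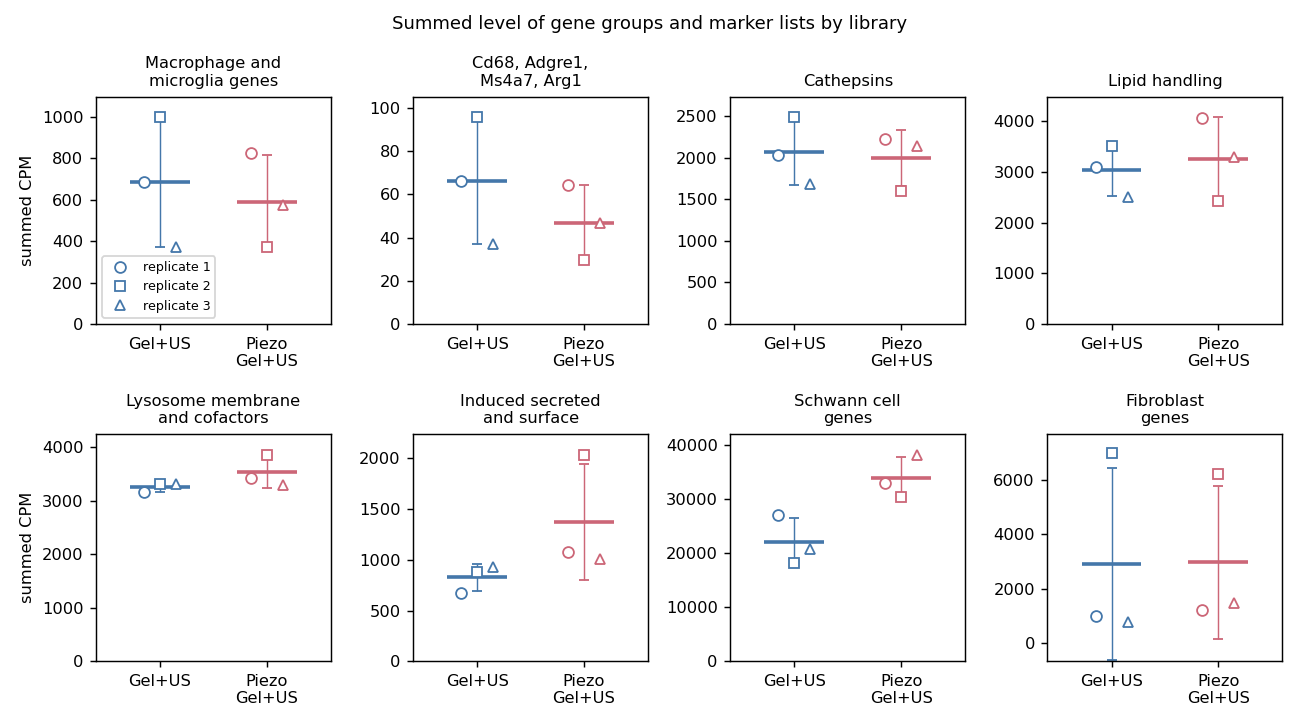
Summed CPM of marker lists and of role groups in each library; marks are libraries with the shape giving the replicate, thick lines are group means and whiskers 1 SD (n = 3). The macrophage and microglia genes, the cathepsins and the group of Cd68, Adgre1, Ms4a7 and Arg1 each have their highest sum in Gel+US replicate 2 and their lowest in Piezo Gel+US replicate 2, and the Schwann cell sum, most of it Mbp, which is shared with central myelin, is higher in each Piezo Gel+US library than in each Gel+US library.

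The sign of most members depended on which libraries entered. Without Gel+US replicate 2, 28 of the 37 were above 0 (51.0% of all genes) and the median was 0.27, with 0 called. Without Piezo Gel+US replicate 2, 20 were above 0 (44.3% of all genes), with a median of 0.037. Other libraries moved the members down: 12 were above 0 without Gel+US replicate 3 (48.1% of all genes), with a median of -0.20, and 13 without Piezo Gel+US replicate 1 (45.7% of all genes), with a median of -0.15. In a fit without replicate 2 of both groups, chosen after seeing the data, 33 were above 0 (49.8% of all genes), the median was 0.26 against -0.0011 over all genes, 0 were called and 5 had an unadjusted p below 0.05 (5.31% of all genes in that fit). Of the 37 tested members 13 kept their sign in all 6 fits that left out 1 library: Mertk, Spp1, Cd9, Ctsa, Lamp1, Lamp2 and Cd63 above 0, and Trem2, Adgre1, Arg1, Fabp5, Lipa and Npc2 below 0. Their values moved all the same: Trem2 was -0.010 without Piezo Gel+US replicate 2, Fabp5 -0.019 without Gel+US replicate 3, and Npc2 -0.019 without Piezo Gel+US replicate 2. Adgre1 ran from -0.80 without Piezo Gel+US replicate 1 to -0.26 without Gel+US replicate 2. None of these was called in any of those fits, and Trem2, Lipa and Npc2 were above 0 without replicate 2 of both groups.

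**Figure D5:**
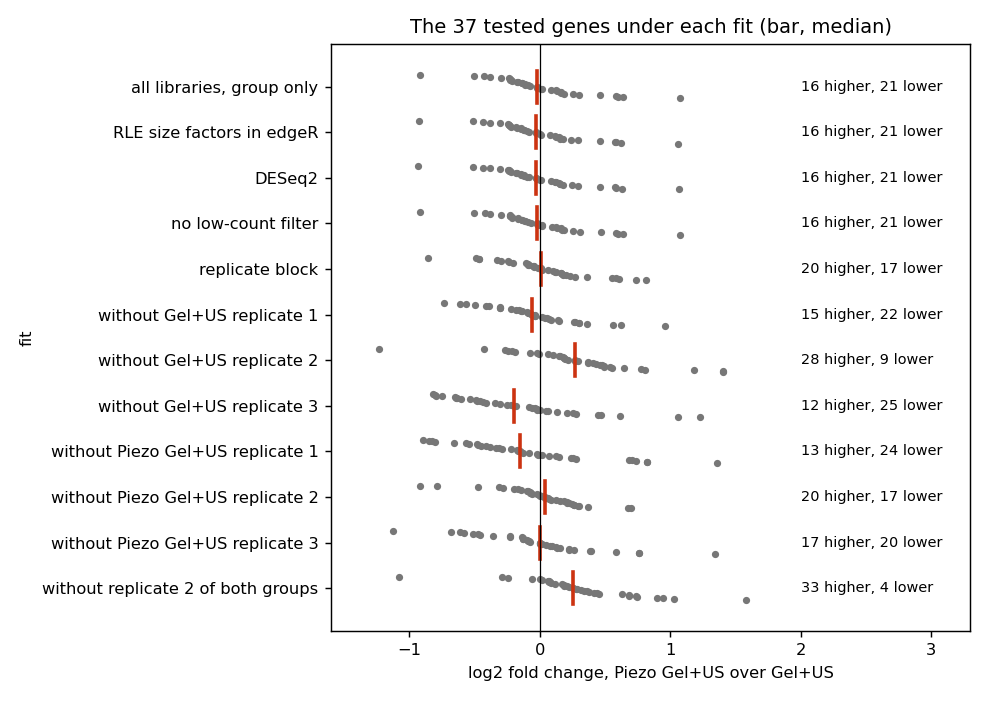
Log2 fold changes of the 37 tested genes (points) under each fit, with the median as a red bar and the number above and below 0 at the right. The medians stay near 0 with all libraries and range from -0.20 without Gel+US replicate 3, through -0.15 when Piezo Gel+US replicate 1 is left out, to 0.26 without replicate 2 of both groups and 0.27 without Gel+US replicate 2.

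Other genes of the same pathways, from lists drawn up beside the members, also had 0 called. Of all genes tested, 47.1% were higher in Piezo Gel+US and 52.9% lower. Lysosomal hydrolases were 14 higher and 18 lower of 32 tested, with a median log2 fold change of -0.060. Arsa, the sulfatase that degrades myelin sulfatide, had the lowest unadjusted p of that list. Its log2 fold change was 0.51 (95% interval -0.095 to 1.12). Lysosome membrane, trafficking and regulator genes were 12 higher and 10 lower of 22, with a median of 0.0062. In that list Ctns, the cystine exporter of the lysosome, measured 29.8, 46.1 and 30.04 CPM under Gel+US and 36.4, 187 and 82.6 CPM under Piezo Gel+US. Ctns was highest in Piezo Gel+US replicate 2, with a log2 fold change of 1.53 (95% interval 0.17 to 2.88), and Gel+US replicate 2 lay above Piezo Gel+US replicate 1. Mitf, a transcription factor of lysosome and Gpnmb expression, had a log2 fold change of 0.30 (95% interval -0.11 to 0.72). Its groups did not overlap, on the higher side (4.08% of all genes). Subunits of the vacuolar ATPase, the proton pump of the lysosome, were 6 higher and 9 lower of 15 (median -0.10).

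Lipid uptake, storage and efflux genes beyond the members were 16 higher and 7 lower of 23 tested (median 0.19), where 47.1% of all genes were higher. Dgat2, which makes the triglyceride of lipid droplets, measured 34.2, 39.1 and 32.7 CPM under Gel+US and 44.2, 69.3 and 48.5 CPM under Piezo Gel+US. Pnpla2, the lipase that breaks it down, measured 114, 92.2 and 106 CPM under Gel+US and 116, 167 and 292 CPM under Piezo Gel+US. In both genes every Piezo Gel+US library lay above every Gel+US library, as it did for 4.08% of all genes. For Pnpla2 the margin was small in replicate 1. The log2 fold changes were 0.61 (95% interval 0.10 to 1.12) and 0.88 (95% interval 0.057 to 1.7), with an adjusted p of 0.994 for each by the edgeR test. Engulfment ligands, receptors and adaptors were 6 higher and 13 lower of 19 (median -0.10). Among them Gas6, the bridging ligand of MERTK and AXL, measured 235, 407 and 247 CPM under Gel+US and 219, 211 and 234 CPM under Piezo Gel+US. Each Piezo Gel+US library lay below each Gel+US library (2.73% of all genes), replicate 3 by a small margin. The log2 fold change of Gas6 was -0.42 (95% interval -1.03 to 0.19), opposite in sign to that of Mertk, and it was not called either. Genes shared by macrophages and microglia were 2 higher and 8 lower of 10 (median -0.23), and genes of homeostatic microglia 0 higher and 7 lower of 7 (median -0.33), with 0 called in either list.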

How the data were processed

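RNA of the spinal cord lesion centre was measured in 6 libraries, 3 in each group. Per the labels' protocols, extraction used TRIzol, libraries were made from poly(A) RNA, and dUTP kept the strand. The authors deposited raw counts per gene with gene names, positions and lengths. The submitters' processing notes list, with no role given, DESeq2 1.20.0, featureCounts 1.5.0-p3, fastp 0.19.7 and HISAT2 2.0.5. The genome build and strand setting of the counting are not given in the sources used here. Of the table's 33455 gene IDs 0 were found in RefSeq GRCr8, whereas 15093 of its gene names were symbols there. In the deposited positions Plin2 and Cd63 lie on the same sequence, whereas in GRCr8 they lie on chromosomes 5 and 7. The rows thus do not follow the chromosomes of GRCr8. Which annotation they follow, and of which species, is not named, and its effect on the levels was not tested. A missing name does not show a missing gene, and promoters were matched by symbol, not by position. No promoter was matched for Tyrobp, Arg1, Lgals3, Lpl, Fabp5, Ctsb, Psap, Msr1, Fcgr2b and Fcgr1a.

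Columns were assigned to libraries through the names the labels give. Counts were tested with edgeR 4.0.16 in R 4.3.3 (TMM, filterByExpr with minimum count 10 and minimum total 15, robust quasi-likelihood F test, group as the only term), with Benjamini-Hochberg adjustment over 17066 genes and calls at adjusted p below 0.05. The procedure was tested on simulated data, where recovery of known changes was required only at a spread between libraries below that found here. The share of true changes it would find at the spread of these libraries is not given. CPM uses TMM-scaled library sizes. The common biological coefficient of variation, the spread between libraries beyond counting error, was 0.382. The p-values of the edgeR test set the difference between groups against the spread between libraries estimated for each gene.

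The members, lists, tests and motifs were chosen with earlier results of these data known. All members are named; full values are given, within each role, for the gene of highest level per length and the 2 of lowest p, and for genes without overlap. In other lists at most 3 genes of lowest p are named; the Schwann cell genes were chosen for naming after their values were seen, and 1 further Schwann cell gene is not reported here. Genes given in full outside this rule (Gpnmb, Ctss and Ctsk) were chosen after their values were seen.

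Both groups carry the replicate numbers 1 to 3. Deviations from group means correlated at 0.253, 0.296 and 0.251 between libraries numbered 1, 2 and 3, each above the limit of 0.1 used to treat numbers as pairs. Libraries of unequal number reached 0.198 at most (replicate 1 of Gel+US and replicate 3 of Piezo Gel+US), also above that limit. Treating the numbers as pairs rests on the data, since the labels do not say what a number marks. The main fit kept group as its only term because the labels give no batch, and the block was run as an alternative. Alternatives were RLE size factors, DESeq2 1.42.0, no low-count filter, the replicate number as a block, and fits leaving out libraries.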

Additional observations from a re-analysis of the deposited data

How the results depend on the processing

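No gene and no member was called with all libraries or under any alternative (RLE size factors, DESeq2, no low-count filter, the replicate block and the 7 fits that left out libraries), so every statement on members is one of direction and spread. RLE factors, DESeq2 and no filter changed no member's sign, and the count of members above 0 stayed at 16. With the replicate block the members above and below 0 were 20 and 17 (median 0.012), 0 were called, and 8 members changed sign: Gpnmb -0.33, Npc1 -0.014, Ctsh 0.061, Plin2 0.0088, Ctsk 0.27, Clec7a 0.012, Fcgr1a 0.36, Cst7 0.60. In that fit 2 members, Mertk and Cd63, had an unadjusted p below 0.05 by the edgeR test, as had 986 of 17066 genes. With group as the only term 1 member and 359 genes had. Leaving out 1 library at a time gave 12 to 28 members above 0, 9 to 25 below 0 and medians from -0.20 to 0.27, the extremes coming from leaving out replicate 3 or replicate 2 of Gel+US. Without replicate 2 of both groups, chosen after seeing the data, 33 were above 0 and 4 below, and 19 members changed sign: Ctsd 0.26, Ctsb 0.19, Ctss 0.19, Grn 0.27, Npc2 0.088, Ctsh 0.22, Ctsz 0.38, Tyrobp 0.63, Plin2 0.26, Ctsk 0.69, Lipa 0.065, Trem2 0.17, Mrc1 0.44, Lpl -0.24, Cd68 0.73, Clec7a 0.94, Fcgr1a 0.90, Msr1 0.21, Cst7 1.58. Ranges of the log2 fold change over the 6 fits that left out 1 library, for the 24 members whose sign changed in at least 1, were Apoe -0.087 to 0.30, Axl -0.064 to 0.49, Cd163 -0.47 to 0.82, Cd68 -0.82 to 0.37, Clec7a -0.49 to 0.54, Cst7 -0.85 to 1.4, Ctsb -0.22 to 0.10, Ctsc -0.20 to 0.48, Ctsd -0.18 to 0.16, Ctsh -0.30 to 0.46, Ctsk -0.92 to 1.4, Ctss -0.62 to 0.21, Ctsz -0.48 to 0.16, Fcgr1a -0.64 to 0.65, Gpnmb -0.45 to 0.68, Grn -0.46 to 0.18, Lgals3 -0.18 to 0.49, Lpl -0.15 to 0.68, Mrc1 -0.68 to 0.27, Msr1 -0.65 to 0.43, Npc1 -0.19 to 0.26, Plin2 -0.20 to 0.18, Psap -0.040 to 0.060, Tyrobp -0.48 to 0.29. For the 13 that kept their sign they were Adgre1 -0.80 to -0.26, Arg1 -1.23 to -0.74, Cd63 0.22 to 0.82, Cd9 0.21 to 1.36, Ctsa 0.050 to 0.37, Fabp5 -0.57 to -0.019, Lamp1 0.060 to 0.39, Lamp2 0.037 to 0.15, Lipa -0.55 to -0.075, Mertk 0.37 to 0.74, Npc2 -0.25 to -0.019, Spp1 0.24 to 1.23, Trem2 -0.66 to -0.010. The cause of these changes was not tested. The members of fewest counts were Ms4a7 (0 to 21 per library, below the filter), Cst7 (1 to 64), Msr1 (12 to 53) and Arg1 (26 to 77), whose values carry the most counting error.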

Other observations

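The 3 members without a row of their name had rows whose deposited protein match carries that gene, which the choice of members by name left out. Of 4 rows matched to cathepsin L, 2 had 0 counts in all libraries and a pseudogene row had 2 to 13 counts per library (log2 fold change -0.67 (95% interval -2.21 to 0.87)). The row described as cathepsin L1, the cysteine protease of endosomes and lysosomes, measured 111, 138 and 105 CPM under Gel+US and 114, 114 and 136 CPM under Piezo Gel+US, with a log2 fold change of 0.042 (95% interval -0.39 to 0.47). A row described as the low-affinity receptor II for IgG, the gene family of Fcgr2b, measured 25.9, 33.3 and 13.97 CPM under Gel+US and 27.9, 14.2 and 30.1 CPM under Piezo Gel+US, a log2 fold change of -0.018 (95% interval -0.99 to 0.95). The table holds 3 rows matched to CD36, the scavenger receptor for oxidised lipoproteins and fatty acids, between which reads may be shared. The most abundant of them measured 9.56, 20.1 and 1.402 CPM under Gel+US and 6.88, 7.34 and 3.72 CPM under Piezo Gel+US, a log2 fold change of -0.79 (95% interval -2.76 to 1.17). The other 2 had log2 fold changes of -0.97 (95% interval -3.01 to 1.07) and -0.61 (95% interval -4.0 to 2.79). Each of the rows given by library was highest in Gel+US replicate 2 and lowest in Gel+US replicate 3. None was called by the edgeR test (adjusted p from 0.994 to 0.998).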
